A study of Mus musculus with 14 samples.

Results

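Hepatocyte nuclei of mouse liver fell into 2 numbered groups in a single-nucleus RNA table, and the contrast between them is described here within each of 2 genotypes. The table holds 24 columns, 12 nucleus groups in each of 2 libraries, and the contrast uses 4 of these columns: group 1 (periportal-like) against group 0 (pericentral-like) in wild type nuclei and in Ms4a7 knockout (KO) nuclei. The groups are the submitters' numbered groups and carry no names in the table. The zonal names rest on 6 marker genes, Lgr5, Cyp2c38 and Slc1a2 for group 0 and Sds, Hal and Gls2 for group 1.

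The series holds 14 libraries of mouse liver, of which 2 are single-nucleus libraries and 12 are bulk libraries that were not used here. Both nucleus libraries came from mice on a diet for 22 weeks that induces nonalcoholic steatohepatitis (NASH), fatty liver with inflammation, so that no healthy liver enters the contrast. One library is of wild type mice and the other of Ms4a7 KO mice, and each pools 3 livers. Nuclei came from frozen tissue, were stained with propidium iodide, sorted and processed on the 10x Chromium platform. Strain, sex, age and how the deletion was made are not given in the sources used here. With 1 pooled library per genotype there is no replicate. The groups also come from clustering the same nuclei, so every ratio below is a description with no test, and a difference between genotypes cannot be told apart from a difference between the 2 libraries.

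Each value is a level, the mean over the nuclei of a group of unique molecular identifiers (UMIs) scaled to 10000 per nucleus, and each ratio is log2 of group 1 over group 0 after adding 0.000434595 to both levels. Positive ratios are therefore higher in the periportal-like group and negative ratios higher in the pericentral-like group. Ms4a7, the deleted gene, encodes a macrophage membrane protein. Its level in the macrophage-like group 3 was 1.25 in wild type and 0.622 in KO nuclei, and in the 4 hepatocyte columns it was 0.00357, 0.00495, 0.00132 and 0.00256. The part of the gene that was deleted is not given, so a 3′ tag may not check the deletion. The 4 columns held 19957 genes above 0 in wild type group 0, 19566 in wild type group 1, 19549 in KO group 0 and 19452 in KO group 1. The number of nuclei per group and the UMIs per nucleus are not given in the sources used here, so no counting interval can be set. How doublets were treated is also not given.

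As background, blood crosses the liver lobule from the portal tract to the central vein, and hepatocytes along this path divide the work. Periportal hepatocytes favour urea synthesis, breakdown of amino acids and gluconeogenesis, and pericentral hepatocytes favour glutamine synthesis, bile acid synthesis and the oxidation of xenobiotics by cytochrome P450 enzymes. Wnt ligands from central vein endothelium, acting through beta-catenin with TCF/LEF factors on DNA, are known to hold the pericentral programme, and Lgr5 is a receptor that strengthens this signal.

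The promoters of 5 strongly contrasted genes are printed because the pericentral genes were high in the same group, and TCF/LEF factors are known to act on that programme. Each is the 250 bases before the annotated start, 5′ to 3′ on the gene's own strand, from RefSeq on GRCm38.p6. Capitals mark a TCF/LEF match on either strand, that is CTTTGAT or its reverse complement. The form CTTTGAA was searched as well. Capitals also mark the TATA box letters, searched as TATAAA on both strands. Slc1a2 (chr2:102706188-102706437, plus strand), Cyp2c29 (chr19:39286835-39287084, plus strand), Cyp2e1 (chr7:140763569-140763818, plus strand) and Cyp2c38 (chr19:39463076-39463325, minus strand) were higher in group 0, and Hal (chr10:93488518-93488767, plus strand) in group 1. The RefSeq starts of Slc1a2, Cyp2c29 (chr19:39269405-39330713) and Cyp2e1 (chr7:140763739-140774987) lie inside the span given for the gene by GENCODE. The printed windows of Slc1a2 and Cyp2c29 lie wholly inside that span, and the window of Cyp2e1 crosses its start.
Slc1a2: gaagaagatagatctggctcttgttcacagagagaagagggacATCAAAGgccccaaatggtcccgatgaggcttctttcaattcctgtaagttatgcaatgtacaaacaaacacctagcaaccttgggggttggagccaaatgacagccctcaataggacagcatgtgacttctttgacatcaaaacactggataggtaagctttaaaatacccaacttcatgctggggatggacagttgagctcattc
Cyp2c29: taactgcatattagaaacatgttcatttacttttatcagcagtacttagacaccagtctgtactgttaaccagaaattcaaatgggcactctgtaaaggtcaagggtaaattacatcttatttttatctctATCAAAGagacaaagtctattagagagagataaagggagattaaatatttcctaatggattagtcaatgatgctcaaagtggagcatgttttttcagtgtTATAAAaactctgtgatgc
Cyp2c38: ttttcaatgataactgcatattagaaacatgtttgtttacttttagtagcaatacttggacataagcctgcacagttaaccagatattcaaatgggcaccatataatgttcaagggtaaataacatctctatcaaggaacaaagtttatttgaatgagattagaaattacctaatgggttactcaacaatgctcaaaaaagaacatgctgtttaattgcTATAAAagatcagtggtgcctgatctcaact
Cyp2e1: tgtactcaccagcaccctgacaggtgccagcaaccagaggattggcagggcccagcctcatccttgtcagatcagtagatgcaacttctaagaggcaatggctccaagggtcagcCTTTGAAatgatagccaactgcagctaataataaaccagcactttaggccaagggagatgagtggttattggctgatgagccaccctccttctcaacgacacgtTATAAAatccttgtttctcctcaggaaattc
Hal: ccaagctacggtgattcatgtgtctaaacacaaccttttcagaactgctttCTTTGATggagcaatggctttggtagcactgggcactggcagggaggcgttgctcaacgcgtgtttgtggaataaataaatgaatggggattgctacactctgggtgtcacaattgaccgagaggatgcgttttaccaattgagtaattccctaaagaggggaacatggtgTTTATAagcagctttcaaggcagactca

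The TCF/LEF match began 207 bases before the start in Slc1a2, 119 in Cyp2c29, 135 in Cyp2e1 and 199 in Hal, and Cyp2c38 held none in this window. Cyp2c29 and Cyp2c38 are neighbours in 1 gene cluster, and 187 of 228 aligned promoter bases (82.0%) were identical. Counted from 1 at the first printed base of Cyp2c29, the match covers bases 132 to 138, and the 1 difference inside it is A137G, with the base of Cyp2c29 first. Among the 2000 genes with the highest mean level, Gm and Rik gene models left out, both are in the 15 with the largest group 0 ratio held in both genotypes. Of the others in that 15 with a promoter in the table, only Slc1a2 and Cyp2e1 held a TCF/LEF match. Glul, Esrrg, Adgrv1, Themis, Airn, Cyp2c67, Cyp2b9 and Tenm3 held none and are not printed. Of the matching 15 group 1 genes, only Hal held one. The printed promoters thus do not show how common the match is. Over all genes higher in group 0 by at least 1 log2 unit in both genotypes, 26 of the 169 with a promoter in the table (15.4%) held a TCF/LEF match. The share was 10 of 153 (6.54%) among genes higher in group 1, 5.82% among tested genes and 7.67% among all 27025 promoters of that length. Of an established list of pericentral genes 7 of 22 (31.8%) held it, and of a periportal list 2 of 22 (9.09%). The difference between these 2 lists was not particular to TCF/LEF. TATAAA was found in 8 (36.4%) and 4 (18.2%) of them, and TTGCNNAA, the CEBP letters, in 4 (18.2%) and 2 (9.09%). The median GC content was 52.4% for group 0 genes, 56.8% for group 1 genes, 59.6% for tested genes and 52% for all promoters, and its part in the shares was not tested. Other letters differed too. TATAAA was found in 14.8% of group 0 promoters, 9.80% of group 1 promoters, 6.47% of those tested and 12.97% of all. The CEBP letters TTGCNNAA were found in 17.8%, 11.1%, 7.76% and 9.55%. The AHR letters TNGCGTG went the other way, at 3.55%, 3.92%, 6.70% and 4.16%, as did CREB, TGACGTCA, at 1.18%, 1.96%, 2.84% and 1.62%. The HNF4A letters CAAAGTCCA were found in 2 group 0 promoters and 1 group 1 promoter, and those of HNF1 in neither set. A match is a description of letters and does not show binding. The table holds no promoter for Lgr5, Sds or Gls2.

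The 6 markers separated the groups in both genotypes and in the direction of their names. Slc1a2 (chromosome 2, 102658659 to 102790784), a glutamate transporter, had a level of 4.68 in group 0 and 0.0633 in group 1 of wild type nuclei, and 7.13 and 0.0907 in KO nuclei. Its log2 ratios were -6.20 and -6.29. Cyp2c38 (chromosome 19, 39389556 to 39463075), a cytochrome P450, went from 12.7 in group 0 to 0.376 in group 1 in wild type and from 6.75 to 0.0555 in KO nuclei, ratios of -5.08 and -6.91. The level of Lgr5 (chromosome 10, 115450311 to 115587780) was 2.51 and 0.0694 in wild type and 1.92 and 0.0208 in KO nuclei, ratios of -5.17 and -6.50. All 3 were lower in group 1 than in group 0 in both libraries, and the ratios of Cyp2c38 and Lgr5 were the larger in KO nuclei.

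Sds (chromosome 5, 120476526 to 120483932), which deaminates serine, was at 0.0413 in group 0 and 2.33 in group 1 of wild type nuclei and at 0.166 and 7.74 in KO nuclei. Its levels in both groups were thus higher in the KO library, while the log2 ratio was 5.80 and 5.54. Hal (chromosome 10, 93488768 to 93519304), which starts histidine breakdown, was at 0.149 and 2.81 in wild type and 0.245 and 4.41 in KO nuclei, ratios of 4.23 and 4.17. Gls2 (chromosome 10, 128194457 to 128210004), the liver glutaminase, was at 0.137 and 1.57 in wild type and 0.242 and 3.63 in KO nuclei, ratios of 3.52 and 3.90. The markers chose the names of the groups, so these values describe the names and do not support them.

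**Figure D1:**
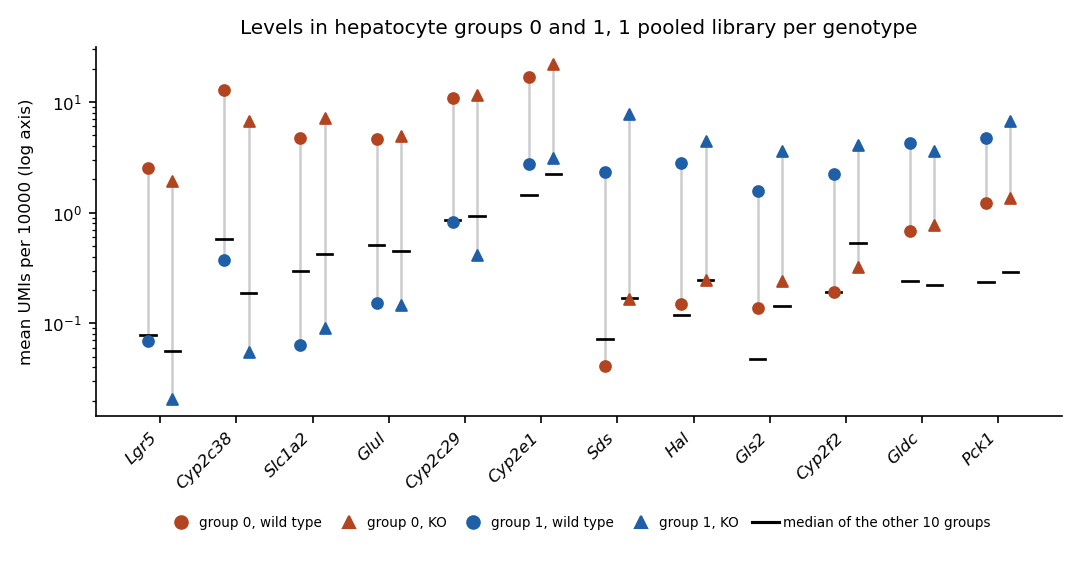
Levels (mean UMIs per 10000, log axis) of 12 zonal genes in group 0 (orange) and group 1 (blue) of wild type (circles) and KO (triangles) nuclei, 1 pooled library per genotype. Black bars are the median of the other 10 nucleus groups; In the low hepatocyte group Lgr5, Cyp2c38, Slc1a2, Glul, Cyp2c29 and Sds lie below that bar in both genotypes.

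Established zonation genes beyond the markers followed the same order. In a list of 32 pericentral genes known from the literature, 31 passed the filter on low levels (a mean over the 4 columns above 0.0411, the 50th percentile of the 21196 genes above 0; genes that passed are called tested below, with no statistical test meant), and 27 were higher in group 0 by at least 1 log2 unit in both genotypes, where 2.22% of all 10598 tested genes were. None was higher in group 1. The list median was -2.62 in wild type and -2.47 in KO nuclei, beside 0.03 and -0.02 over all tested genes. The 4 below that size in at least 1 genotype were Avpr1a (-0.87 and -0.91), Ces1d (-0.75 and -1.45), Gstm1 (-0.43 and -1.30) and Aldh1a1 (-0.35 and -2.08), and Rhbg was not tested. Of 30 periportal genes, all tested, 21 were higher in group 1 by at least 1 log2 unit in both, where 2.04% of all tested genes were, with medians of 1.88 and 1.79. Sardh, which breaks down sarcosine, was near level at 0.01 and -0.13. The lists include the 6 markers, so their counts do not support the names of the groups.

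Across all genes, 276 of the 10598 tested (2.6%) were higher in group 1 and 258 (2.43%) higher in group 0 by at least 1 log2 unit in wild type nuclei, 5.04% in either direction. In KO nuclei the counts were 341 (3.22%) and 451 (4.26%), 7.47% in either direction. In both genotypes together 216 (2.04%) were higher in group 1 and 235 (2.22%) in group 0, and none was past that size in opposite directions. Counts of list members below are to be read beside these shares. The share of all tested genes with the same sign in both genotypes was not counted. Among the 2000 genes with the highest mean level, 42 (2.1%) were higher in group 1 and 38 (1.9%) in group 0 in both, and at 2 log2 units the counts were 14 (0.7%) and 16 (0.8%). The threshold cuts a continuous range: among those 2000 genes, Cyp7b1 (smaller ratio -1.004) and Mug2 (1.002) lay just inside, and Por (-0.998582) and Tat (0.998417) just outside.

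**Figure D2:**
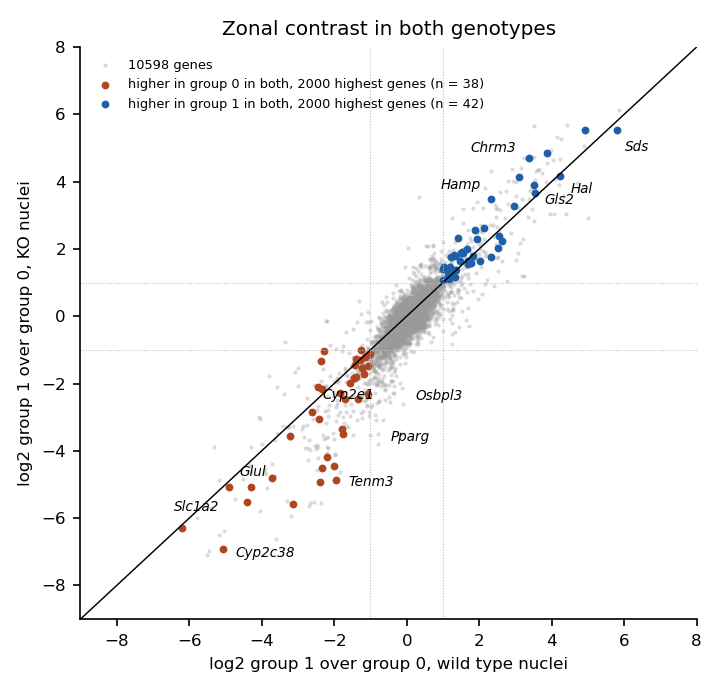
Log2 ratio of group 1 over group 0 in wild type nuclei (horizontal) and KO nuclei (vertical), 1 point per tested gene (n = 10598); coloured points are the 38 and 42 genes past 1 log2 unit in both genotypes among the 2000 highest. The line marks equal ratios, and most orange points lie below it.

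The pericentral side opened with the Wnt pathway. Lgr5 is given above, and other genes that report the pathway's activity were higher in group 0. Tbx3, a transcription factor and target of the pathway, was at 0.966 and 0.073 in wild type and 0.839 and 0.0397 in KO nuclei, ratios of -3.72 and -4.39. Axin2, a feedback inhibitor, was at 0.26 and 0.0353 and at 0.239 and 0.0246, ratios of -2.87 and -3.25. Notum, a secreted Wnt inhibitor, had ratios of -2.22 and -2.08, and Rnf43, which removes Wnt receptors, -1.44 and -1.85. Of the 18 tested members of the list, 5 were higher in group 0 in both genotypes and 1 in group 1, the repressor Tcf7l1 (1.40 and 2.33). Of all tested genes 2.22% and 2.04% were. Components that carry the signal were near level, among them Ctnnb1, which encodes beta-catenin (0.06 and 0.04), Apc (0.03 and 0.07), Gsk3b (-0.10 and -0.14) and the receptor Lrp6 (0.42 and 0.44). The list median was -0.35 and -0.28, but 0.15 and 0.12 over its members among the 2000 highest genes.

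Genes of glutamine synthesis and ammonia scavenging included some of the largest group 0 ratios. Glul (chromosome 1, 153899944 to 153909723), glutamine synthetase, was at 4.58 in group 0 and 0.154 in group 1 of wild type nuclei and at 4.92 and 0.146 in KO nuclei, ratios of -4.89 and -5.07. Oat, which feeds ornithine carbon towards glutamate, had ratios of -3.98 and -3.79, and the neutral amino acid carrier Slc1a4 -1.91 and -2.48. The glutamine carriers Slc38a3 (0.39 and 0.47) and Slc38a4 (0.50 and 0.65) lay slightly on the group 1 side. With Slc1a2, 4 of the 6 tested members were higher in group 0 in both genotypes, where 2.22% of all tested genes were.

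Cytochrome P450 genes of families 1 to 3, which oxidise drugs, steroids and fatty acids, were mostly on the group 0 side. Of 32 tested, 15 were higher there in both genotypes, where 2.22% of all tested genes were, and 1 was higher in group 1. The median was -0.99 in wild type and -1.32 in KO nuclei. Among the 2000 highest genes it was -0.85 and -0.50, so the order between genotypes turned with the genes admitted. Cyp2e1, which oxidises ethanol, was at 16.9 and 2.75 in wild type and 22.1 and 3.09 in KO nuclei, ratios of -2.62 and -2.84. Cyp2c29 was at 10.9 and 0.827 and at 11.7 and 0.415, ratios of -3.72 and -4.81. Cyp1a2, an aryl hydrocarbon receptor target, had ratios of -3.39 and -2.31. The exception was Cyp2f2, at 0.192 and 2.23 in wild type and 0.325 and 4.12 in KO nuclei, ratios of 3.54 and 3.67. Members of the 2j and 2d families were near level, such as Cyp2j5 (0.28 and 0.08) and Cyp2d26 (-0.07 and -0.12). Close copies among the Cyp2c, Cyp2b and Cyp2d genes can share reads, so single values within these families are uncertain.

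Genes of conjugation and export showed the same side with smaller ratios. Of 40 tested, 7 were higher in group 0 in both, where 2.22% of all tested genes were, and 1 in group 1. Ratios were negative in both for 33, a share not counted over all tested genes. The median was -0.48 and -0.85, beside 0.03 and -0.02 over all tested genes. Gstm2 and Gstm3, glutathione transferases with close copies, had ratios of -3.57 and -3.48 and of -2.22 and -3.16. Slco1b2, which takes up bile acids and drugs from blood, was at 33.7 and 12.8 in wild type and 37.4 and 10.7 in KO nuclei. The sulfotransferase Sult5a1 stood on the other side, at 3.45 and 3.17. Of 31 hepatocyte transcription factors, 3 were higher in group 0 in both, where 2.22% of all tested genes were. These were Tbx3, Nr1i3, the xenobiotic sensor CAR (-1.71 and -2.45), and Ahr, the aryl hydrocarbon receptor (-1.33 and -2.47). The factors that define hepatocytes were near level, with Hnf4a at 0.24 and 0.30, Nr1h4 at 0.07 and -0.16 and Zbtb20 at 0.18 and 0.25.

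On the periportal side, 4 of 8 tested urea cycle genes were higher in group 1 in both genotypes, where 2.04% of all tested genes were. Cps1, the entry enzyme, was at 10.1 and 35.8 in wild type and 18.5 and 63.4 in KO nuclei, ratios of 1.82 and 1.78. Arg1, which releases urea, was at 1.5 and 6.11 and at 1.52 and 4.76, ratios of 2.03 and 1.64. Ass1 and Asl, the middle steps, had ratios of 1.68 and 1.63 and of 1.18 and 1.77. Otc was below the threshold at 0.77 and 0.65, and the 8 tested members had medians of 0.99 and 1.29.

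Amino acid breakdown did not move as 1 block. Of 47 tested members 10 were higher in group 1 in both, where 2.04% of all tested genes were, and none in group 0. The median was 0.27 and 0.26. The histidine branch was contrasted at its first steps, with Hal given above, Uroc1 at 1.68 and 1.54 and Amdhd1 at 1.77 and 1.58. Gldc, which cleaves glycine, was at 0.688 and 4.3 in wild type and 0.77 and 3.61 in KO nuclei, ratios of 2.64 and 2.23, and Cbs, which makes cystathionine, had 1.24 and 1.37. Late steps of tyrosine breakdown were near level, with Hgd at -0.01 and -0.04 and Fah at -0.28 and -0.09. Prodh, which starts proline breakdown, lay on the group 0 side at -1.05 and -0.98.

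Of 12 tested genes of gluconeogenesis and glucose output, 8 had positive and 3 negative ratios in both genotypes, and only Pck1 was past 1 log2 unit in both. Pck1, which makes phosphoenolpyruvate, was at 1.22 and 4.68 in wild type and 1.37 and 6.77 in KO nuclei, ratios of 1.94 and 2.30. G6pc, which releases glucose, was at 2.91 and 4.7 and at 2.26 and 7.84, ratios of 0.69 and 1.79. Of the list's members, 11 had the larger ratio by size in KO nuclei, and the median was 0.16 in wild type and 0.65 in KO nuclei. Over all tested genes the ratios were also more spread in KO nuclei (standard deviation 0.59 in wild type and 0.73 in KO). The share of all tested genes with the larger ratio in KO nuclei was not counted. Glycolysis and glycogen synthesis genes gave no member past 1 log2 unit in both genotypes among 16, with Pklr, a pyruvate kinase, at 0.16 and 0.48.

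Plasma proteins leaned to group 1 with modest ratios. Of 36 carrier and coagulation genes, 32 had positive ratios in both genotypes, a share not counted over all tested genes. The medians were 0.52 and 0.76, beside 0.03 and -0.02 over all tested genes. In both genotypes 4 were higher in group 1 by at least 1 log2 unit, where 2.04% of all tested genes were. Alb, albumin, was at 14.6 and 22.5 in wild type and 17.2 and 46.7 in KO nuclei, ratios of 0.62 and 1.44. Hpx, which binds heme, had 1.55 and 1.88. Hamp (chromosome 7, 30942368 to 30944032), the iron hormone hepcidin, was at 1.07 and 5.35 in wild type and 1.66 and 18.3 in KO nuclei, ratios of 2.32 and 3.47, while the other 16 tested iron genes gave none past the threshold in both. Of 16 acute phase genes 5 were higher in group 1 in both, where 2.04% of all tested genes were. Among them were Saa1 (2.16 and 1.90) and Hp, haptoglobin (1.19 and 1.47), and Orm3 was higher in group 0 (-1.02 and -1.44). RNA of hepatocyte genes is also common outside hepatocytes. The summed level of 10 hepatocyte markers, which include enzymes such as Cps1, was 72.7 and 101 in wild type hepatocyte groups 0 and 1. In KO nuclei it was 95.1 and 174. In the other 10 groups the sum ran from 7.86 to 46.9 in wild type and from 19.03 to 102 in KO nuclei. It was higher in KO in 10 of 10 groups. Alb alone ran from 3.13 to 14.5 in wild type and from 8.22 to 39.9 in KO nuclei in those groups. The part of such RNA in these ratios was not tested.

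**Figure D3:**
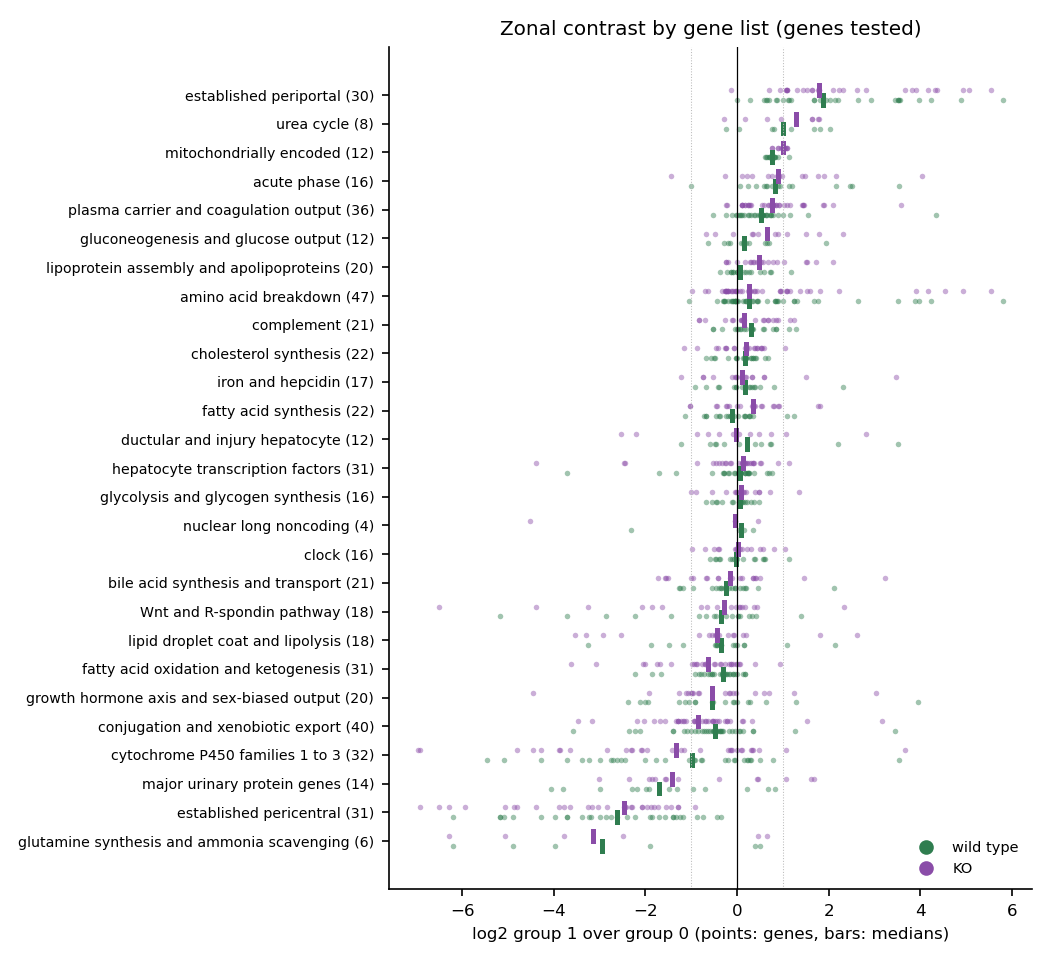
Log2 ratio of group 1 over group 0 for each tested gene (points) and the median (bars) of 27 gene lists in wild type (green) and KO (purple) nuclei; the number of tested genes stands after each name. Established periportal genes have medians of 1.88 and 1.79 and established pericentral genes of -2.62 and -2.47.

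Most genes of the lipid lists were not past the threshold in both genotypes, but some lists held more than tested genes at large. Of all tested genes 2.22% were higher in group 0 and 2.04% in group 1 in both. Of 18 lipid droplet genes 4 and 2 were, of 21 bile acid genes 3 and 1, and of 20 lipoprotein genes 0 and 1. Fatty acid oxidation and ketogenesis genes leaned to group 0: of 31 tested, 25 had negative ratios in both genotypes, a share not counted over all tested genes. The median was -0.31 and -0.62, beside 0.03 and -0.02 over all tested genes. Of these genes 3 were higher in group 0 by at least 1 log2 unit in both, where 2.22% of all tested genes were. Pdk4, which holds back glucose oxidation, had -2.22 and -3.62. In fatty acid synthesis 2 of 22 were higher in group 1 in both, Acly (1.24 and 1.77) and Pnpla3 (1.09 and 1.82), where 2.04% of all tested genes were. Fasn changed sign below the threshold (-0.38 and 0.53). That list had 9 positive and 7 negative members in both and medians of -0.10 and 0.35, with Acacb (-0.68 and -1.03) and Lpin2 (-0.69 and -1.03) on the group 0 side. Lipid droplet genes went both ways: Hsd17b13 was at 1.15 and 5.06 in wild type and 0.665 and 4.07 in KO nuclei, ratios of 2.13 and 2.61, and Cidea (-3.25 and -3.30), Plin4 (-1.48 and -3.54) and Cidec (-1.17 and -2.53) were higher in group 0. Of bile acid genes, Cyp7a1, the rate-limiting enzyme of synthesis, had -1.18 and -1.71 and Cyp27a1 -1.24 and -1.54, while the export pump Abcb11 was near level at 0.12 and 0.35. Cholesterol synthesis gave no member past the threshold in both among 22. Of 20 apolipoprotein and lipoprotein assembly genes 18 had the larger ratio by size in KO nuclei, with medians of 0.06 and 0.47. Such a lean was not particular to this list. It was 27 of 31 for hepatocyte transcription factors and 30 of 36 for plasma carrier genes, but 5 of 14 for major urinary protein genes. The share over all tested genes was not counted. Apoa4 went from 0.312 and 0.468 in wild type to 0.214 and 0.918 in KO nuclei.

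Genes known for control by growth hormone and sex hormones went both ways. Major urinary proteins, pheromone carriers with close copies, had 7 of 14 tested members higher in group 0 in both genotypes, where 2.22% of all tested genes were. The medians were -1.70 and -1.41. The members differed among themselves: Mup20 was at 2.66 and 4.28 in wild type and 4.13 and 13.2 in KO nuclei, and Mup3, Mup20 and Mup21 had positive ratios in both. The summed level of the list was therefore higher in group 1, at 6.08 and 7.50 in wild type and 16.7 and 32.7 in KO nuclei. These genes also had higher levels in the KO library, with median log2 ratios of KO over wild type of 2.34 in group 0 and 3.19 in group 1. Of 20 genes of the growth hormone axis and sex-biased output, 4 were higher in group 0 and 2 in group 1 in both. Of all tested genes 2.22% and 2.04% were. The list medians were -0.55 and -0.55. Sult1e1, which inactivates estrogen, was at 0.00319 and 0.0559 and at 0.0157 and 0.131, ratios of 3.96 and 3.02. Ghr, the growth hormone receptor, was near level at -0.10 and -0.26. Complement genes gave 2 of 21 higher in group 1 in both, C8b (1.28 and 1.25) and C9 (1.14 and 1.16), where 2.04% of all tested genes were. Of 16 clock genes, only Cry1, a repressor of the clock, was past the threshold in both (1.13 and 1.05), on the side where 2.04% of all tested genes were.

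The size of the contrast was compared between genotypes over all tested genes. The standard deviation of the ratios across genes was 0.59 in wild type and 0.73 in KO nuclei, 1.24 times as large, and it was larger in KO nuclei in each of 5 equal classes of genes by level. The ratios correlated across the 10598 genes with Pearson's r of 0.88 and Spearman's rho of 0.70, as a description of genes that share libraries and depth. Of genes picked in wild type nuclei, 267 of 276 higher in group 1 and 255 of 258 higher in group 0 had the same sign in KO nuclei. The 2 libraries share 1 set of numbered groups, so the KO library is no independent replicate. Some of this agreement and of the correlation is therefore built into the grouping. The share of all tested genes with the same sign was not counted. Genes picked in wild type nuclei had medians of 1.64 there and 1.69 in KO nuclei on the group 1 side, and of -1.79 and -2.35 on the group 0 side. Picked in KO nuclei, the medians were 1.59 there and 1.25 in wild type, and -1.71 and -1.04. On both sides the median was thus the larger in KO nuclei whichever genotype picked the genes.

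The larger ratios in KO nuclei were not shared by all pericentral genes. Of the 235 genes higher in group 0 in both genotypes, 186 had the larger ratio in KO nuclei, and the medians were -1.87 and -2.48. Slc1a2, Glul and Cyp2e1 kept their size, with differences (KO minus wild type) of -0.09, -0.18 and -0.22. Cyp2c37 (-4.29 and -3.88) and Notum had the smaller ratio in KO nuclei. The established pericentral list had the larger ratio in KO nuclei for 23 of 31 members, although its median was the smaller, an order that changed with the genes admitted (-2.81 and -2.94 over genes highest in group 0 or 1). Of the 216 genes higher in group 1 in both, 137 had the larger ratio in KO nuclei, with medians of 1.90 and 1.91.

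For genes whose ratio was lower in KO nuclei, the difference lay mostly in the periportal-like group. The ratio differed between genotypes by at least 1 log2 unit for 253 genes (2.39%), 186 lower in KO nuclei (1.76%) and 67 higher (0.632%). Of the 186, 159 had the larger genotype difference in group 1, where their median log2 ratio of KO over wild type was -1.70, beside -0.25 in group 0. Of the 67, 35 had the larger genotype difference in group 1, with medians of 0.74 in group 1 and -0.50 in group 0. For the 235 group 0 genes the same medians were -0.51 in group 1 and 0.03 in group 0. Over all tested genes the genotypes differed by at least 1 log2 unit for 839 genes in group 1 (7.92%) and 609 in group 0 (5.75%). The genotype ratios of all tested genes were thus also wider in group 1, with a standard deviation of 0.63 beside 0.54 in group 0. The share of all tested genes with the larger genotype difference in group 1 was not counted.

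Tenm3 (chromosome 8, 48227682 to 48843951), a cell adhesion protein, had the lowest difference among the 2000 highest genes, Gm and Rik gene models left out. Its level was 12.4 in group 0 and 3.18 in group 1 of wild type nuclei and 8.21 and 0.283 in KO nuclei, ratios of -1.96 and -4.86. Pparg (chromosome 6, 115360951 to 115490399), a nuclear receptor that drives fat storage, was at 3.19 and 1.83 in wild type and 2.07 and 0.181 in KO nuclei, ratios of -0.80 and -3.51. Osbpl3, a lipid-binding protein, was near level in wild type nuclei at 2.38 and 2.24 and was at 1.36 and 0.221 in KO nuclei, ratios of -0.09 and -2.62. For each of these 3 genes KO group 1 held the lowest of the 4 levels by a wide margin.

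Of genes in the lipid lists, 3 of 18 lipid droplet, 5 of 31 oxidation, 0 of 22 fatty acid synthesis and 1 of 20 lipoprotein genes differed by at least 1 log2 unit between genotypes, where 2.39% of all tested genes did. Plin4, a lipid droplet coat protein, was at 0.97 and 0.348 in wild type and 0.771 and 0.0659 in KO nuclei. Cd36, a fatty acid importer, was at 2.94 and 1.89 and at 1.51 and 0.364, ratios of -0.64 and -2.05. Vnn1, a pantetheinase, was at 0.533 and 0.299 and at 0.431 and 0.0504, ratios of -0.83 and -3.08. Acaa1b, a peroxisomal thiolase, was at 10.8 and 6.23 and at 15.2 and 3.76, so that its level in group 0 was the higher in KO nuclei and its level in group 1 the lower. Other members kept their ratio, with differences (KO minus wild type) of -0.05 for Cidea, -0.08 for Cyp4a14, 0.18 for Cyp4a10 and 0.48 for Hsd17b13.

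Themis (5.85 and 1.11 in wild type, 3.63 and 0.118 in KO nuclei) and Tox (10.7 and 1.22, and 8.05 and 0.167), both better known from T cells, also differed, with ratios of -2.40 and -4.93 and of -3.13 and -5.59. The summed level of 10 T or NK cell markers was 5.88, 1.14, 3.66 and 0.165 in the 4 columns in the same order, of which Themis itself was nearly all. The defining marker Cd3e was at 0.000952, 0.00168, 0.00115 and 0.000542, and Skap1 was at 0.0107, 0.00956, 0.0173 and 0.0212. Cyp2b9, a P450 with close copies, was at 6.26 and 1.55 in wild type and 1.24 and 0.0561 in KO nuclei, so that it was lower in KO nuclei in both groups.

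Airn (chromosome 17, 12741311 to 12860136, plus strand), an imprinted long noncoding RNA, was at 16.3 and 3.25 in wild type and 8.92 and 0.39 in KO nuclei, ratios of -2.32 and -4.52. It overlaps Igf2r, on the opposite strand, whose ratios were -1.40 and -1.89. Whether strand was used in counting is not given in the sources used here, so it is not known whether reads of the 2 genes were told apart. Adjacent tested genes that were all higher in group 0 by at least 1 log2 unit in both genotypes included 5 Cyp2c genes on chromosome 19 (39007019 to 39649051), 4 Cyp2b and Cyp2a genes on chromosome 7 (26061497 to 26939384) and Rgs16, Teddm2 and Glul on chromosome 1 (153740349 to 153909723). In the first 2 of these the genes are close copies.

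**Figure D4:**
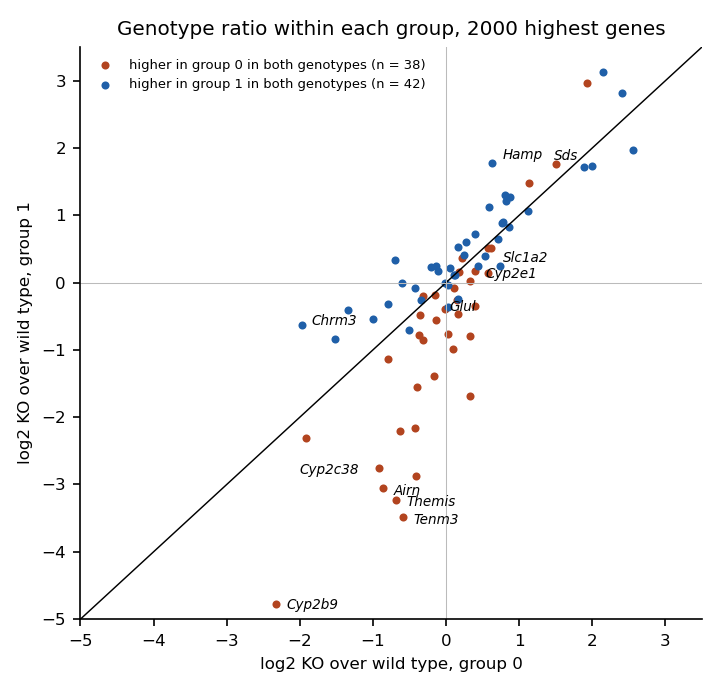
Log2 ratio of KO over wild type in group 0 (horizontal) and group 1 (vertical) for the 38 genes higher in group 0 (orange) and the 42 higher in group 1 (blue) in both genotypes among the 2000 highest. On the line the zonal contrast has the same size in both genotypes. Of the 38 orange points 32 lie below it, with Tenm3, Themis, Airn and Cyp2b9 lowest among the labelled genes.

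Ratios that were higher in KO nuclei were fewer. Among the 2000 highest genes, Gm and Rik gene models left out, the difference reached 1.34 at most, beside -2.90 on the other side. Chrm3, a muscarinic receptor, was at 1.67 and 17.2 in wild type and 0.424 and 11.1 in KO nuclei, ratios of 3.36 and 4.71, so that it was lower in KO nuclei in both groups. Esr1, the estrogen receptor, had 3.11 and 4.13. Serpina1b, an antitrypsin gene with close copies, was at 1.07 and 1.29 and at 1.72 and 4.64, ratios of 0.27 and 1.43. Slco1a1 (-2.12 and -0.85) and Sult2a8 (-2.36 and -1.33), a steroid and bile acid importer and a sulfotransferase, were higher in group 0 with smaller ratios in KO nuclei. Slco1a1 was at 1.63 and 0.373 in wild type and 4.48 and 2.5 in KO nuclei. Sult2a8 was at 4.97 and 0.968 and at 19 and 7.53, so that both were higher in KO nuclei in both groups.

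Levels of the low hepatocyte group were set beside the other 10 nucleus groups. Of the 38 group 0 genes among the 2000 highest, group 1 was at or under the median of the other groups for 10 in wild type nuclei and for 17 in KO nuclei, with a median ratio of 2.88 and 1.37 to that level. Of the 42 group 1 genes, group 0 was at or under it for 11 and 14, with median ratios of 2.34 and 1.98. Glul in group 1, at 0.154 and 0.146, lay under medians of 0.515 and 0.45. In the other direction, group 0 was above every other group for 31 and 30 of its 38 genes and group 1 for 32 and 32 of its 42. The genes were picked by their levels and ratios in these same hepatocyte columns, so both sets of counts follow in part from the choice. The share among other genes was not counted. Not all contrasted genes belong to hepatocytes alone: Tshz2, higher in group 1 (2.52 and 2.03), reached 31.9 in group 2 of wild type nuclei.

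**Figure D5:**
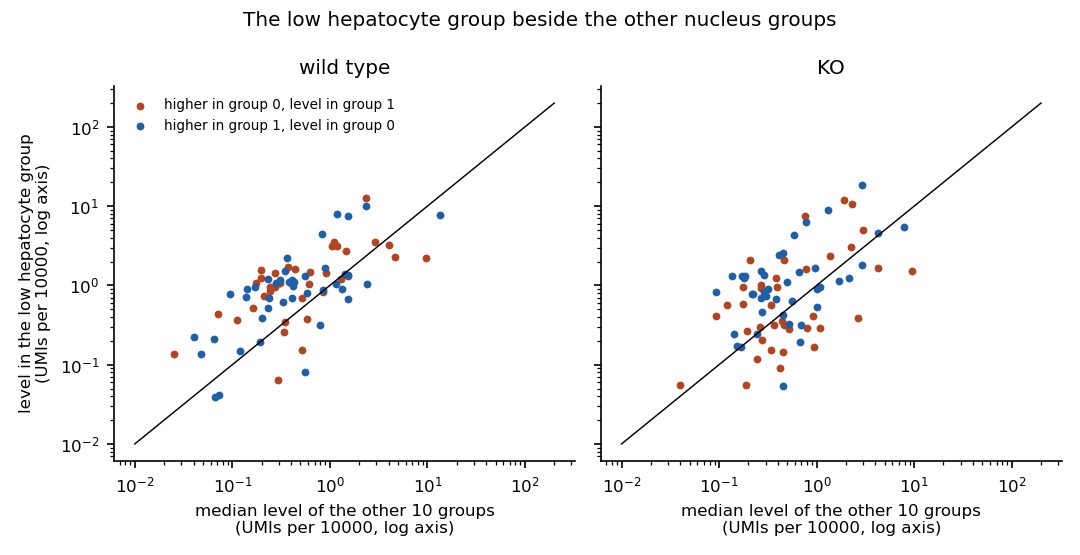
Level in the low hepatocyte group (vertical) against the median level of the other 10 nucleus groups (horizontal), both in UMIs per 10000 on log axes, for the 38 group 0 genes (orange) and 42 group 1 genes (blue) in wild type (left) and KO nuclei (right). Points on or under the line, 10 orange and 11 blue in wild type and 17 and 14 in KO nuclei, are at or below the level in the other groups.

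Markers of other cells and RNA of the cytoplasm also differed between the groups. The summed level of 10 cholangiocyte markers was 3.07 in group 0 and 6.18 in group 1 of wild type and 2.39 and 3.08 in KO nuclei, against 168 and 167 in the cholangiocyte-like group 7, and Krt7, Krt19 and Epcam reached at most 0.00348 in any of the 4 columns. All 5 tested cholangiocyte markers had positive ratios in both genotypes. Sox9, which also marks periportal hepatocytes, had ratios of 3.52 and 2.82 and Spp1 2.21 and 1.07. Bicc1 had 2.78 and 1.05, with levels of 0.086 and 0.592 in wild type and 0.0527 and 0.109 in KO nuclei, and reached 45.7 and 39.1 in group 7. Sums for 10 macrophage markers were 1.096, 0.655, 1.04 and 0.673, and for stellate, endothelial, neutrophil and B cell markers they were at most 0.559. Mitochondrially encoded RNA, which should be scarce in nuclei, summed to 17.99 and 30.0 in wild type and 23.2 and 44.8 in KO nuclei, and all 12 tested genes had positive ratios in both (medians 0.76 and 1.005). It is thus higher in group 1, the side of Pck1 and most plasma protein genes, and more so in KO nuclei. Its part in those results was not tested. The nuclear RNA Malat1 was near level (0.04 and -0.05).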

How the data were processed

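The deposited table gives a signal per gene and nucleus group, the authors' mean level in each of 12 groups per library, and each of the 4 columns used sums to 10000. Cell Ranger and Seurat 4.0.1 are named, per the submitters' processing notes, and mm10 is the build; how nuclei were filtered, clustered and checked for doublets is not given in the sources used here. Of 21915 entries, 4 with repeated names were left out. Genes with a mean over the 4 columns above the 50th percentile of genes above 0 (0.0411) were tested for size, 10598 in all, and log2 ratios used a pseudocount of 0.000434595, the 5th percentile of values above 0, which understates changes of low genes. No test was made, since each genotype has 1 library; a call is a ratio of at least 1 log2 unit. The script was tested on simulated data. Named genes were the 6 markers, the 15 per direction with the largest ratio held in both genotypes among the 2000 highest, up to 8 per direction that differed most between genotypes, up to 4 per list, and members of the zonation lists. Gm and Rik gene models were left out when the 15 and the 8 were ranked. Other genes, such as list members near level, were chosen after their values were seen. The members and lists were chosen with earlier results of these data known. Positions are from GENCODE M21 and promoters from RefSeq on GRCm38.p6. Python 3.11.15, numpy 2.4.6, pandas 2.3.3, Biopython 1.88 and matplotlib 3.10.9 were used. Some genes are not reported here. Alternatives were other pseudocounts, filters, scalings, gene sets and a larger fold.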

Additional observations from a re-analysis of the deposited data

How the results depend on the processing

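No paired analysis was possible because each genotype has 1 pooled library and no result comes from a test. The 6 marker ratios kept their sign under the alternatives run, except that Lgr5 is not among the 2000 highest genes and has no value there. In each alternative the ratios had the larger standard deviation in KO nuclei, and other pseudocounts, centring and rescaling kept every count within 1.5 times. The counts moved with the genes admitted and the fold. Without a filter on low levels, 1844 genes were higher in group 1 and 1597 in group 0 in wild type nuclei, 1669 and 2030 in KO nuclei, 654 and 705 in both, and 3966 differed between genotypes. Among the 2000 genes with the highest mean, these counts were 45 and 42, 72 and 86, 42 and 38, and 35, and the established pericentral list had a median of -1.71 in wild type nuclei. Among genes whose highest group was group 0 or 1 they were 105 and 149, 139 and 227, 96 and 140, and 99, and the standard deviation of the ratios was 0.90 in wild type and 1.11 in KO nuclei. At 2 log2 units they were 104 and 107, 106 and 182, 81 and 95, and 37. In KO nuclei group 0 genes outnumbered group 1 genes in each of these settings, while in wild type nuclei the order changed. Centring also turned it, to 265 and 266. The established pericentral median was larger by size in KO nuclei among genes whose highest group was group 0 or 1 (-2.81 and -2.94) and, as above, among the 2000 highest (-2.45 in KO nuclei). The cytochrome P450 median, larger by size in KO nuclei as reported, was the smaller there among the 2000 highest (-0.85 and -0.50). Medians near 0 changed sign in the Wnt, glycolysis, clock, transcription factor and ductular lists under at least 1 setting. The standard deviation of the ratios in KO nuclei was 1.08 times that in wild type without a filter and 1.28 times among the 2000 highest genes. Depth per group is unknown, so ratios that rest on a level near 0 in the low group have no known precision.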

Other observations

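Outside the gene lists, and chosen after their values were seen, a few genes of lower level also had ratios that differed between genotypes. Lpl, lipoprotein lipase, was at 0.18 in group 0 and 0.16 in group 1 of wild type nuclei and at 0.431 and 0.0381 in KO nuclei, so that its log2 ratio was -0.17 and -3.48. It was far higher in the macrophage-like group 3, at 5.47 in wild type nuclei. Lepr, the leptin receptor, was at 0.133 and 0.168 in wild type and 0.0127 and 0.154 in KO nuclei, ratios of 0.33 and 3.56, so that KO group 0 held the low value. The hemoglobin gene Hba-a2 was at 0.316 and 0.0676 in wild type and 0.0459 and 0.0417 in KO nuclei, ratios of -2.22 and -0.14. No replicate bears on these values.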
